A study of Columba livia with 6 samples.

Results

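The TGF-beta and BMP signaling genes of the domestic pigeon (Columba livia) ovary were taken as the loci that the deposited annotation lists under the KEGG TGF-beta signaling pathway. Loci that are also listed under cell cycle, oocyte meiosis or progesterone-mediated oocyte maturation were left out (21 of 90), as were 4 loci named INHBB, FST, INHBA and AMH. This left 65 of the 34346 loci of the table. By symbol, protein description or pathway entry the 65 members comprised 12 ligands, 10 receptors, 5 SMADs, 7 secreted inhibitors, 3 latency and matrix proteins, 5 intracellular and membrane inhibitors, 3 SMAD anchors and cofactors, 4 transcriptional targets, 4 members of the non-SMAD arm and 12 loci that carry a pathway entry without a symbol or description of the pathway.

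Whole ovaries of 6 birds were compared, 3 in each group, namely HP1, HP2 and HP3 of high egg production and LP4, LP5 and LP6 of low egg production. All 6 were untreated, sexually mature females of 2 years, hatched together and of the same genetic background, and were picked as the extremes of one flock. RNA depleted of ribosomal RNA was sequenced, and each ovary is 1 library. The comparison asks which members differ in RNA level between ovaries of high and low layers.

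Ligands of this family are secreted dimers that bring together type I and type II receptor kinases on the cell surface. The type I receptor then phosphorylates receptor SMADs, of which SMAD1, SMAD5 and SMAD9 carry BMP signals and SMAD2 and SMAD3 carry TGF-beta and activin signals, and these enter the nucleus with SMAD4. Secreted antagonists such as noggin and chordin bind BMP ligands before they reach the receptor, inhibitory SMADs act inside the cell, and matrix proteins hold latent TGF-beta. In the vertebrate ovary BMPs from theca and stroma, together with ligands from the oocyte, are known to act on granulosa cells and on their steroid production.

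Levels are given as CPM, counts divided by the effective library size of the ovary and multiplied by 1000000, and the total counts were between 97875183 and 108669967. Differences are log2 fold changes of HP over LP from edgeR's quasi-likelihood test, with their standard error (SE), and p-values were adjusted after Benjamini and Hochberg across the 28274 loci tested. Of the 65 members, 58 reached the mean FPKM of 0.1 required for testing. Each group has 3 birds. The p-values rest on the spread among birds within both groups, which edgeR moderates with the spread of other loci. Because whole ovaries were sequenced, fewer cells of a type and less RNA per cell cannot be told apart.

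Among the 58 tested members, the log2 fold change farthest from zero was that of the ligand BMP4. Its mean in HP ovaries was 0.34 times that in LP ovaries, and it was the one member past both the p limit and the fold limit. No receptor of 10 and no SMAD of 5 had an unadjusted p under 0.05 in edgeR, against 8.24% of all tested loci. So few loci allow no contrast with the ligands. None of the 58 tested members had an adjusted p under 0.05 in edgeR, against 0.0106% of all tested loci. DESeq2 called 1 member at that limit, BMP4, and 385 of all loci. At an unadjusted p under 0.05 there were 4 members, or 6.9%, against 8.24% of all tested loci. Of these, 3 were lower in HP ovaries (BMP4, THBS1 and DCN), against 3.5% of all loci, and 1 was higher (ANKFN1), against 4.74%. With the added limit of a 2-fold ratio between group means of FPKM, 1 member was called, BMP4, against 3.11% of all loci in either direction and 1.02% lower in HP ovaries. HP and LP ovaries did not overlap for 8 members, or 13.8%, against 14.6% of all loci. In 2 of them (ANKFN1 and ACVR1B) every HP ovary was above every LP ovary, as in 7.38% of all loci, and in 6 (BMP4, NODAL, CHRD, THBS1, LOC110359721 and SMAD1) every HP ovary was below, as in 7.17% of all loci. Counted in both directions, the 6.9% by unadjusted p and the 13.8% without overlap were slightly below the shares of all loci. By direction, the 3 and 6 members lower in HP ovaries, of 58 tested, were larger shares than in all loci. The 1 and 2 members higher in HP ovaries were smaller shares. These differences rest on few members and were not tested. Among the 36 members with a mean of at least 10 CPM, both shares in either direction were slightly above those of the 12531 loci at such levels. They were 11.1% against 9.31% by unadjusted p, and 16.7% against 15.4% without overlap.

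The log2 fold changes of the 58 members had a median of -0.05 and ran between -1.56 and 1.22, with 27 positive and 31 negative. All tested loci had a median of -0.01. The median size of the change was 0.21 among the members and 0.23 among all loci. Among the members with a mean of at least 10 CPM, the 95% interval of the log2 fold change lay within 1 log2 unit of zero for 30, or 83.3%, against 83.6% of all loci at such levels.

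**Figure D1:**
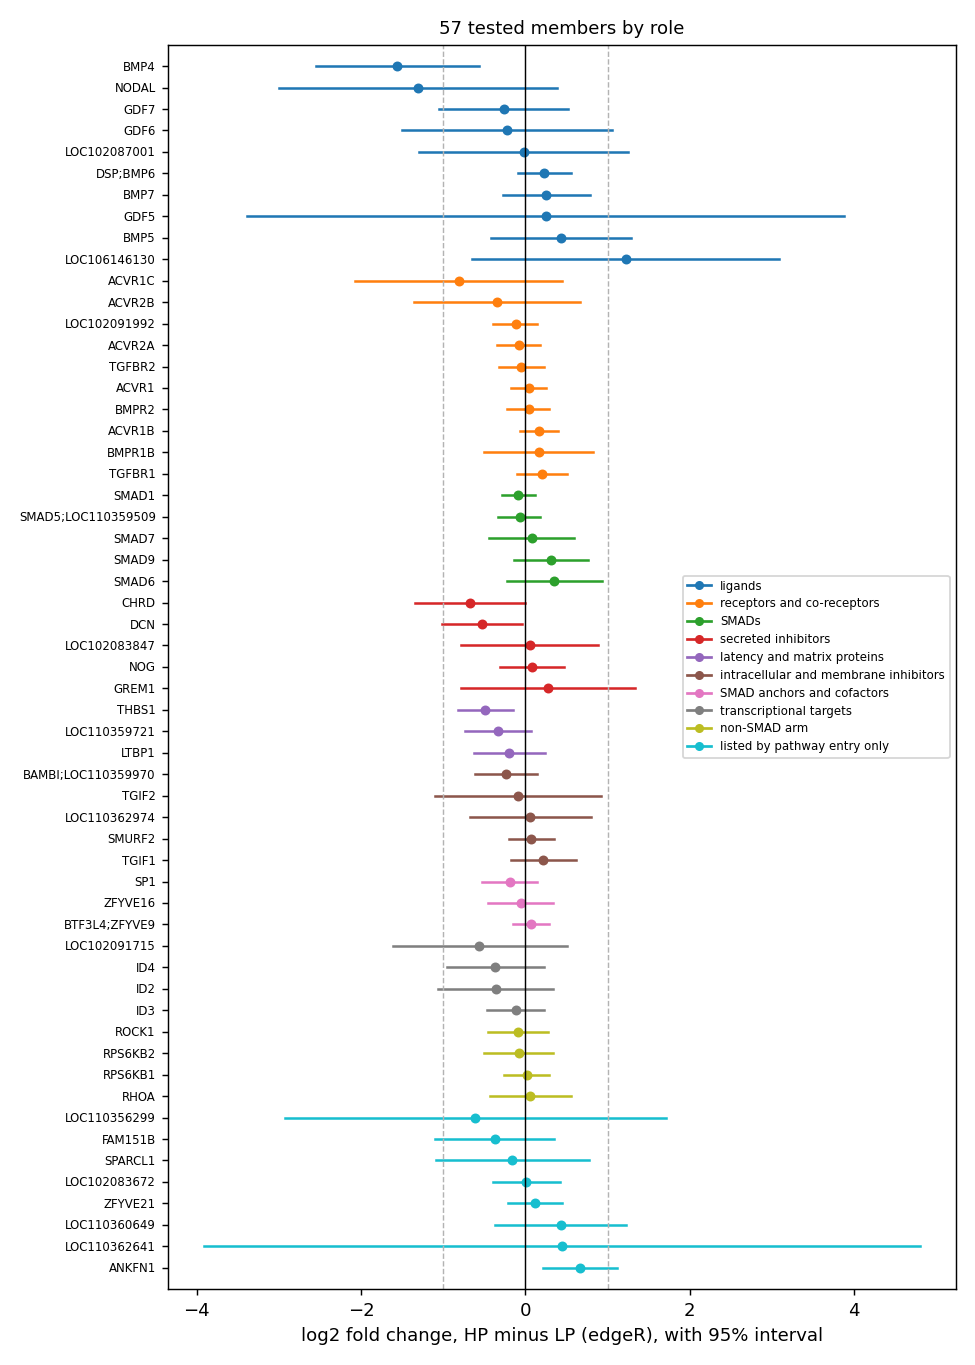
Log2 fold changes, HP over LP, of 57 of the 58 tested members by role (points) with their 95% intervals (lines) from edgeR. The dashed lines stand at 1 log2 unit on either side of zero. BMP4 lies at -1.56, and 8 of the 10 receptors and all 5 SMADs have intervals inside the dashed lines.

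Among the ligands, BMP4 differed most. BMP4 encodes a bone morphogenetic protein that signals through SMAD1, SMAD5 and SMAD9, and its locus lies on the minus strand of Cliv_1.0 scaffold NW_004973611.1 between bases 359014 and 364452. It had 16.6, 20.8 and 24.3 CPM in HP1, HP2 and HP3, against 27.0, 66.2 and 88.1 CPM in LP4, LP5 and LP6. Every HP ovary was below every LP ovary, but HP3 and LP4 were close, and the LP ovaries differed among themselves by more than the HP ovaries did. The means were 20.5 ± 3.86 CPM in HP and 60.5 ± 31.0 CPM in LP ovaries (SD, n = 3 each). The log2 fold change was -1.56 (SE 0.42, 95% interval -2.55 to -0.56), with an unadjusted p of 0.00793 and an adjusted p of 0.572 in edgeR. Leaving out 1 ovary at a time gave log2 fold changes between -1.91 and -1.18, each with an unadjusted p under 0.05. In DESeq2 the adjusted p was 0.0151, and 385 of all loci had one under 0.05.

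NODAL, a ligand of activin receptors known from the left-right axis of the embryo, had few counts, with 4, 19 and 23 counts in the HP ovaries, against 25, 43 and 44 counts in LP ovaries. These did not overlap, and the log2 fold change of -1.31 had an SE of 0.71 and an adjusted p of 0.659 in edgeR.

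The other BMP ligands among the members did not separate the groups. BMP5 averaged 6.61 ± 1.88 CPM in HP and 4.89 ± 1.87 CPM in LP ovaries, with its highest value in HP3 (8.77 CPM) and its lowest in LP4 (2.98 CPM). BMP7 averaged 11.2 ± 0.647 CPM in HP and 9.37 ± 2.2 CPM in LP ovaries. The locus that holds BMP6 also holds DSP, the desmosomal protein desmoplakin, and the counts of the pair cannot be split. This joint locus averaged 428.6 ± 37.9 CPM in HP and 365.3 ± 48.2 CPM in LP ovaries, with a log2 fold change of 0.23 and an adjusted p of 0.674 in edgeR. GDF5, GDF6, GDF7 and LOC102087001, described as BMP8A, all had less than 1 CPM in every ovary, with log2 fold changes between -0.26 and 0.25.

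LOC106146130, described as BMP2-B-like and BMP7-like, had the most positive log2 fold change of the tested members, 1.22, with an SE of 0.78 and an adjusted p of 0.704 in edgeR. It had 0.591, 0.923 and 2.36 CPM in HP ovaries, against 0.382, 1.09 and 0.187 CPM in LP ovaries. The groups overlapped, and HP3 was the highest ovary. Without HP3 the log2 fold change was 0.45, and without LP5 it was 2.18, with an unadjusted p of 0.03 in edgeR. LOC102098026, described as inhibin beta C-like, stayed under the level required for testing. It had 85, 4 and 14 counts in HP ovaries, against 0, 4 and 0 counts in LP ovaries, so that most of its reads came from HP1. Fitted without the filter on low values, its log2 fold change was 4.45, with an unadjusted p of 0.0319 and an adjusted p of 0.651 in edgeR. The cytokine IFNG, which the pathway map includes, had 0 counts in every HP ovary and at most 0.0413 CPM in LP ovaries.

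**Figure D2:**
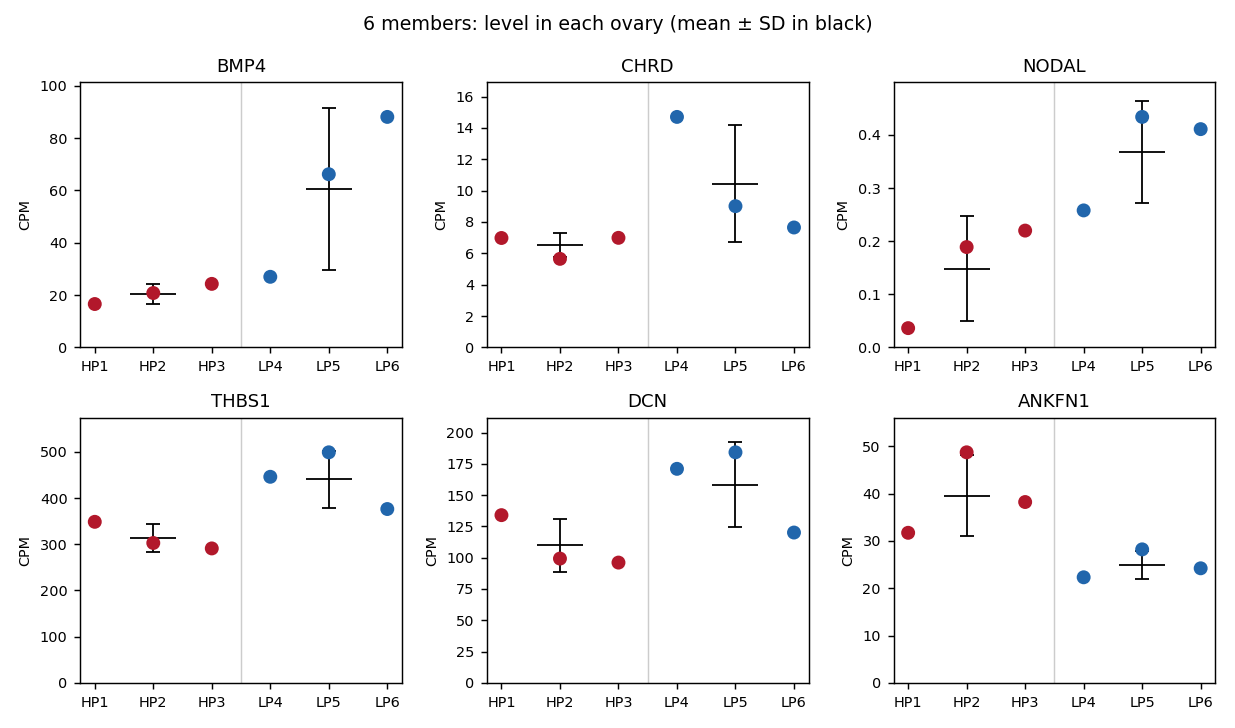
CPM of BMP4, CHRD, NODAL, THBS1, DCN and ANKFN1 in each ovary, HP in red and LP in blue, with the group mean and SD in black (n = 3 each) and each axis starting at 0. HP lies below LP without overlap for BMP4, CHRD, NODAL and THBS1, above it for ANKFN1, and DCN overlaps between HP1 (134.0 CPM) and LP6 (120.1 CPM).

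Most receptors had 95% intervals within 1 log2 unit of zero, as did most loci with a mean of at least 10 CPM. The 10 log2 fold changes had a median of -0.01 and ran between -0.81 and 0.2. For 8 of them, or 80.0%, the 95% interval lay within 1 log2 unit of zero. The shares were 83.6% of the loci with a mean of at least 10 CPM and 54.1% of all tested loci. For 7 receptors it lay within 0.585 log2 units, a 1.5-fold difference. That held for 6362 of the 12531 loci with a mean of at least 10 CPM and for 6948 of all 28274 tested loci. BMPR2, a type II receptor of BMPs, had 353.7, 392.6 and 324.5 CPM in HP ovaries, against 336.9, 360.9 and 346.5 CPM in LP ovaries. Its values overlapped fully, and the log2 fold change was 0.04 with an interval of -0.22 to 0.29. The type I receptor ACVR1 averaged 85.8 ± 2.3 CPM in HP and 83.5 ± 2.28 CPM in LP ovaries, with an interval of -0.17 to 0.25. BMPR1B, a type I receptor for BMPs that is known to affect ovulation rate in sheep, averaged 5.92 ± 1.44 CPM in HP and 5.31 ± 1.24 CPM in LP ovaries. Its interval was wider, from -0.51 to 0.82. A further BMPR1B locus outside the members, at most 0.686 CPM in any ovary, overlapped between the groups. The log2 fold change of that locus was -1.41, with an unadjusted p of 0.0836 in edgeR.

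The receptors of TGF-beta itself and of activin were measured at similar means. TGFBR1 averaged 59.6 ± 5.96 CPM in HP and 51.9 ± 4.78 CPM in LP ovaries. TGFBR2 averaged 131.8 ± 15.5 CPM in HP and 136.4 ± 1.81 CPM in LP ovaries, and LOC102091992, described as a TGF-beta receptor type-2, averaged 74.1 ± 7.6 CPM in HP and 80.7 ± 3.78 CPM in LP ovaries. The activin receptor ACVR2A averaged 117.3 ± 3.27 CPM in HP and 124.1 ± 13.6 CPM in LP ovaries. ACVR1B, a type I activin receptor, was the one receptor whose groups did not overlap. It had 86.2, 93.7 and 94.5 CPM in HP ovaries, against 86.0, 82.2 and 76.7 CPM in LP ovaries. HP1 and LP4 were separated by a margin far smaller than the SD of either group, and the log2 fold change of 0.16 had an adjusted p of 0.679 in edgeR.

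ACVR1C and ACVR2B had the widest intervals of the receptors and varied from ovary to ovary, within both groups. ACVR1C, a type I receptor for NODAL and activins, had 0.536, 1.94 and 1.56 CPM in HP ovaries, against 2.25, 3.35 and 1.48 CPM in LP ovaries. ACVR2B, a type II activin receptor, had 4.72, 15.3 and 9.94 CPM in HP ovaries, against 15.3, 13.2 and 9.59 CPM in LP ovaries. HP1 was the lowest ovary for both, and the log2 fold change of ACVR2B was -0.35 with all ovaries and -0.01 without HP1. Further ACVR2B loci outside the members, at most 1.98 CPM in any ovary, had log2 fold changes of -0.48 and -0.74. Both overlapped between the groups, and HP1 was the lowest ovary at the latter only.

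All 5 SMAD members had 95% intervals within 1 log2 unit of zero, against 54.1% of all tested loci and 83.6% of those with a mean of at least 10 CPM. SMAD1, a receptor SMAD of the BMP arm, had 97.6, 93.9 and 96.4 CPM in HP ovaries, against 100.9, 99.6 and 104.9 CPM in LP ovaries. The groups did not overlap, with SDs of 1.87 CPM in HP and 2.77 CPM in LP ovaries, and the log2 fold change was -0.09 (interval -0.29 to 0.12, adjusted p 0.809 in edgeR). A further SMAD1 locus outside the members, at most 0.609 CPM in any ovary, was also lower in every HP than in any LP ovary. The log2 fold change of that locus was -0.47, with an unadjusted p of 0.212 in edgeR. SMAD5 averaged 138.1 ± 14.5 CPM in HP and 145.5 ± 3.01 CPM in LP ovaries, counted together with LOC110359509. SMAD9 averaged 43.7 ± 3.49 CPM in HP and 35.3 ± 8.1 CPM in LP ovaries, with the lowest value in LP5 (26.7 CPM). The inhibitory SMAD6 had 40.7, 28.6 and 37.0 CPM in HP ovaries, against 22.8, 37.2 and 23.3 CPM in LP ovaries. Its log2 fold change was 0.35 with an adjusted p of 0.719 in edgeR. Leaving out 1 ovary at a time gave log2 fold changes of 0.23 to 0.62 for SMAD6, with unadjusted p of 0.0206 to 0.413 in edgeR. Only the fit without LP5 (0.62), the one high LP ovary, had an unadjusted p under 0.05. The other inhibitory SMAD, SMAD7, averaged 9.29 ± 1.13 CPM in HP and 8.81 ± 1.74 CPM in LP ovaries.

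Of the tested secreted inhibitors, CHRD and DCN had the lowest values in HP relative to LP ovaries. CHRD encodes chordin, which binds BMPs and keeps them from their receptors. It had 6.98, 5.65 and 6.99 CPM in HP ovaries, against 14.7, 9.01 and 7.65 CPM in LP ovaries. The groups did not overlap, and LP4 stood above the other LP ovaries. The log2 fold change was -0.68 (SE 0.28) with an unadjusted p of 0.0506 and an adjusted p of 0.604 in edgeR, and without LP4 it was -0.35. DCN encodes decorin, a small matrix proteoglycan that binds TGF-beta. It had 134.0, 99.3 and 96.1 CPM in HP ovaries, against 171.0, 184.2 and 120.1 CPM in LP ovaries. HP1 lay above LP6, and the log2 fold change was -0.53 (SE 0.21) with an unadjusted p of 0.0386 and an adjusted p of 0.595 in edgeR. Without HP2, HP3, LP4 or LP5 the unadjusted p of DCN was between 0.0982 and 0.119.

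The noggin genes and GREM1, whose products also bind BMPs, overlapped between the groups. NOG had 11.6, 12.9 and 14.7 CPM in HP ovaries, against 11.9, 11.9 and 13.2 CPM in LP ovaries, with a log2 fold change of 0.08 (interval -0.31 to 0.47). LOC102083847, described as noggin-2-like, averaged 1.86 ± 0.295 CPM in HP and 1.79 ± 0.72 CPM in LP ovaries. GREM1 averaged 3.14 ± 0.597 CPM in HP and 2.59 ± 1.29 CPM in LP ovaries, with the lowest value in LP4 (1.12 CPM). LOC102087348, described as left-right determination factor 2, an antagonist of NODAL, was not tested, and its highest value was 0.273 CPM in LP5.

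The 3 latency and matrix loci all had negative log2 fold changes, with a median of -0.34. THBS1 encodes thrombospondin-1, a matrix glycoprotein that activates latent TGF-beta. It had 348.7, 302.9 and 291.1 CPM in HP ovaries, against 446.2, 499.2 and 376.4 CPM in LP ovaries. Every HP ovary was below every LP ovary. The means were 314.2 ± 30.4 CPM in HP and 440.6 ± 61.6 CPM in LP ovaries, and the log2 fold change was -0.49 (SE 0.14, interval -0.82 to -0.15) with an unadjusted p of 0.0112 and an adjusted p of 0.573 in edgeR. LTBP1, which tethers latent TGF-beta to the matrix, averaged 269.2 ± 50.7 CPM in HP and 308.2 ± 46.9 CPM in LP ovaries, and these overlapped. LOC110359721, described as LTBP1-like, overlaps LTBP1 on the opposite strand. It had 19.2, 19.7 and 14.8 CPM in HP ovaries, against 24.9, 20.2 and 22.6 CPM in LP ovaries, which did not overlap. Its log2 fold change was -0.34 with an adjusted p of 0.646 in edgeR. Whether reads were counted by strand is not stated in the sources used here, so the values of these overlapping loci are uncertain.

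The summed stroma markers were also lower in HP ovaries. The summed level of the 5 stroma markers COL1A1, COL1A2, COL3A1, PDGFRA and LUM was 2328.5, 1350.8 and 1744.2 CPM in HP ovaries, against 2679.1, 2999.1 and 2442.0 CPM in LP ovaries, which did not overlap. Of the 5, COL1A1 and LUM were each lower in every HP ovary than in any LP ovary, while COL1A2, COL3A1 and PDGFRA overlapped. PDGFRA had 194.8, 175.3 and 165.7 CPM in HP ovaries, against 172.1, 232.4 and 153.9 CPM in LP ovaries. None of the 5 was at 0. The 6 smooth muscle markers found summed to between 552.2 and 1003.0 CPM in HP ovaries and between 676.2 and 3449.4 CPM in LP ovaries, with LP5 the highest. Per 1000 CPM of the stroma markers, a ratio chosen after the data were seen and given without a test, THBS1 was 149.8, 224.2 and 166.9 in HP ovaries, against 166.6, 166.5 and 154.1 in LP ovaries. On this scale the groups overlapped. The marker sum was lower in HP ovaries, so dividing by it raises HP relative to LP values for any gene. DCN also overlapped, at 62.0 ± 9.98 in HP and 58.1 ± 7.85 in LP ovaries, and so did CHRD, at 3.73 ± 0.638 in HP and 3.87 ± 1.4 in LP ovaries. BMP4 was 7.11, 15.4 and 13.9 in HP ovaries, against 10.1, 22.1 and 36.1 in LP ovaries. LP4 then lay among the HP ovaries and LP5 and LP6 above all of them. The part of stroma and smooth muscle content in the differences of BMP4, CHRD, DCN and THBS1 was not tested.

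**Figure D3:**
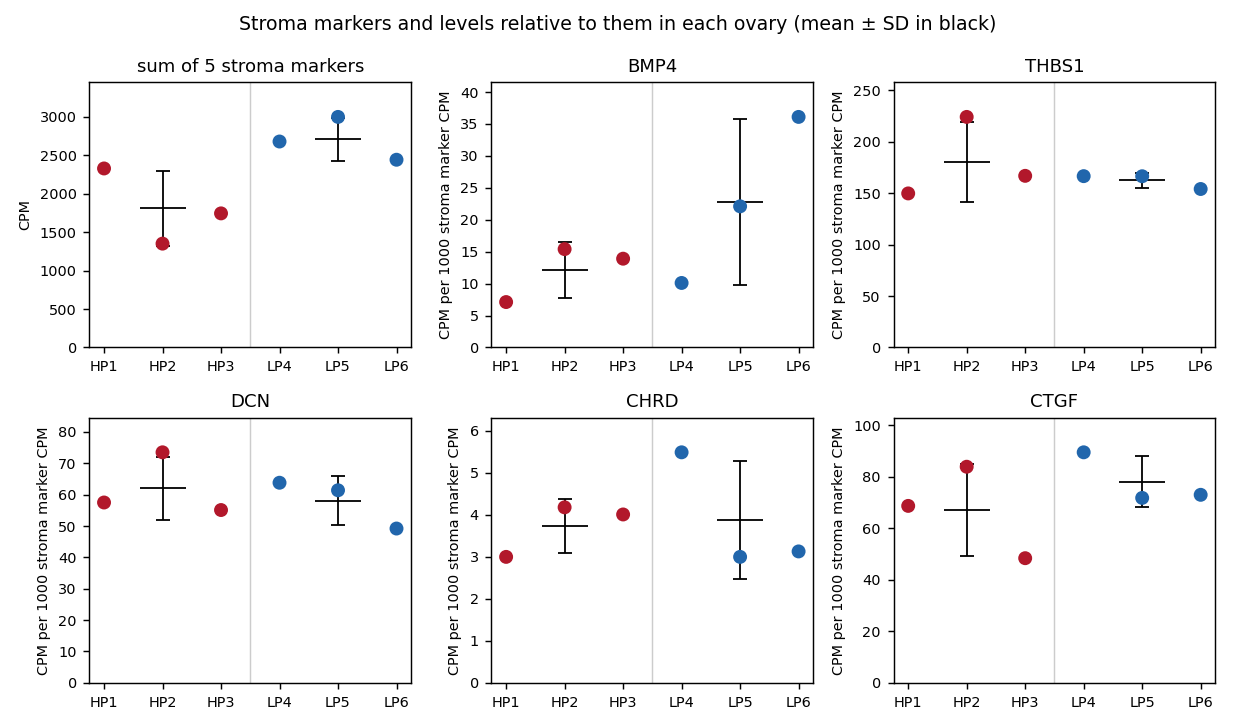
Summed CPM of the 5 stroma markers in each ovary, and the CPM of BMP4, THBS1, DCN, CHRD and CTGF per 1000 CPM of those markers, HP in red and LP in blue, with mean and SD in black (n = 3 each). The marker sum is lower in HP than in LP ovaries without overlap, so dividing by it raises HP relative to LP values for any gene. All 5 ratios overlap between the groups, and the BMP4 ratio averages 12.1 in HP and 22.8 in LP ovaries.

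The intracellular and membrane inhibitors had a median log2 fold change of 0.06. BAMBI, a decoy receptor without kinase activity, averaged 31.4 ± 3.96 CPM in HP and 37.1 ± 5.02 CPM in LP ovaries, counted together with LOC110359970. SMURF2, a ubiquitin ligase that removes SMADs and receptors, averaged 93.1 ± 5.43 CPM in HP and 88.5 ± 9.69 CPM in LP ovaries. LOC110362974, described as SMURF2 and overlapping it on the opposite strand, averaged 1.05 ± 0.261 CPM in HP and 1.0 ± 0.161 CPM in LP ovaries. TGIF1, a corepressor of SMAD2 and SMAD3, averaged 77.2 ± 13.6 CPM in HP and 66.6 ± 9.04 CPM in LP ovaries. Its relative TGIF2 varied widely within both groups, with 27.7, 30.2 and 14.6 CPM in HP ovaries, against 13.7, 25.1 and 38.3 CPM in LP ovaries. The direction of its small mean difference depended on which ovary was left out.

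The anchors ZFYVE9 and ZFYVE16 present SMADs to receptors at endosomes, and SP1 is a transcription factor that works with SMADs. ZFYVE9, counted together with BTF3L4, averaged 205.4 ± 9.43 CPM in HP and 195.6 ± 6.52 CPM in LP ovaries. ZFYVE16 averaged 162.9 ± 32.3 CPM in HP and 169.2 ± 17.7 CPM in LP ovaries. SP1 averaged 44.5 ± 1.5 CPM in HP and 50.9 ± 7.78 CPM in LP ovaries, where LP4 (42.0 CPM) was below and LP5 and LP6 (55.2 and 55.7 CPM) were above the HP ovaries. Further SP1 loci outside the members, at most 2.84 and 5.31 CPM in any ovary, had log2 fold changes of -0.66 and -0.19. At both, every HP ovary was below every LP ovary, with unadjusted p of 0.096 and 0.318 in edgeR.

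The transcriptional targets all had negative log2 fold changes, with a median of -0.36, but none had an unadjusted p under 0.05 in edgeR and all 4 overlapped between groups. The ID genes encode inhibitors of helix-loop-helix transcription factors and are classical targets of BMP signaling. ID2 had 32.6, 18.3 and 19.6 CPM in HP ovaries, against 40.0, 25.2 and 25.4 CPM in LP ovaries. HP1 was above LP5 and LP6, and LP4 was the highest ovary. Its log2 fold change was -0.36 with an adjusted p of 0.76 in edgeR. Leaving out 1 ovary at a time gave log2 fold changes of -0.67 to -0.11 for ID2, with unadjusted p of 0.0448 to 0.72 in edgeR. Only the fit without HP1 (-0.67) had an unadjusted p under 0.05. ID3 had 23.5, 20.1 and 23.9 CPM in HP ovaries, against 27.4, 22.9 and 23.3 CPM in LP ovaries, with an interval of -0.47 to 0.23. ID4 averaged 3.4 ± 0.268 CPM in HP and 4.38 ± 1.07 CPM in LP ovaries. LOC102091715, described as pituitary homeobox 2, a transcription factor of the left-right axis, averaged 0.994 ± 0.0804 CPM in HP and 1.46 ± 0.753 CPM in LP ovaries. LP6 was the ovary highest in BMP4, and LP4 the ovary highest in ID2 and in ID3. Any relation of the ID genes to the level of BMP4 was not tested.

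In the non-SMAD arm, through which these receptors also act on the cytoskeleton and on protein synthesis, 4 of 4 intervals lay within 0.585 log2 units of zero. The same held for 6362 of the 12531 loci with a mean of at least 10 CPM. The GTPase RHOA averaged 247.7 ± 12.2 CPM in HP and 237.1 ± 70.0 CPM in LP ovaries, with LP4 the highest ovary (315.8 CPM). Its kinase ROCK1 averaged 53.0 ± 1.85 CPM in HP and 56.4 ± 10.3 CPM in LP ovaries. The S6 kinases RPS6KB1 and RPS6KB2 had log2 fold changes of 0.02 and -0.08.

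Among the 12 loci listed by pathway entry only, ANKFN1 was higher in HP ovaries. It is described as an ankyrin repeat and fibronectin type-III domain protein but carries the noggin entry, and it lies on the same scaffold and strand as NOG. It had 31.7, 48.7 and 38.2 CPM in HP ovaries, against 22.3, 28.2 and 24.2 CPM in LP ovaries. The groups did not overlap, and the log2 fold change was 0.67 (SE 0.19, interval 0.21 to 1.12) with an unadjusted p of 0.0112 and an adjusted p of 0.573 in edgeR. A second locus with the symbol ANKFN1, which lies inside it on the same strand and has no pathway entry, had a log2 fold change of -0.13 with an unadjusted p of 0.64 in edgeR. LOC102083672, another locus described as ankyrin repeat and fibronectin type-III protein with the noggin entry, averaged 72.7 ± 15.4 CPM in HP and 72.2 ± 3.04 CPM in LP ovaries, with the lowest value in HP1 (55.0 CPM). SPARCL1, a matrix protein that carries the follistatin entry, averaged 2.49 ± 0.629 CPM in HP and 2.79 ± 1.32 CPM in LP ovaries, with LP5 the highest (4.29 CPM). LOC110363609 carries the thrombospondin-1 entry but is described as a von Willebrand factor D and EGF domain-containing protein. It was not tested, and had 338, 258 and 235 counts in HP ovaries, against 56, 350 and 330 counts in LP ovaries, where LP4 alone was low. Of the remaining 8 loci, FAM151B, ZFYVE21, LOC110356299, LOC110360649 and LOC110362641 were tested and had log2 fold changes between -0.61 and 0.45. LOC110356050, LOC110361875 and LOC110364234 were not tested and had at most 0.33 CPM in any ovary.

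**Figure D4:**
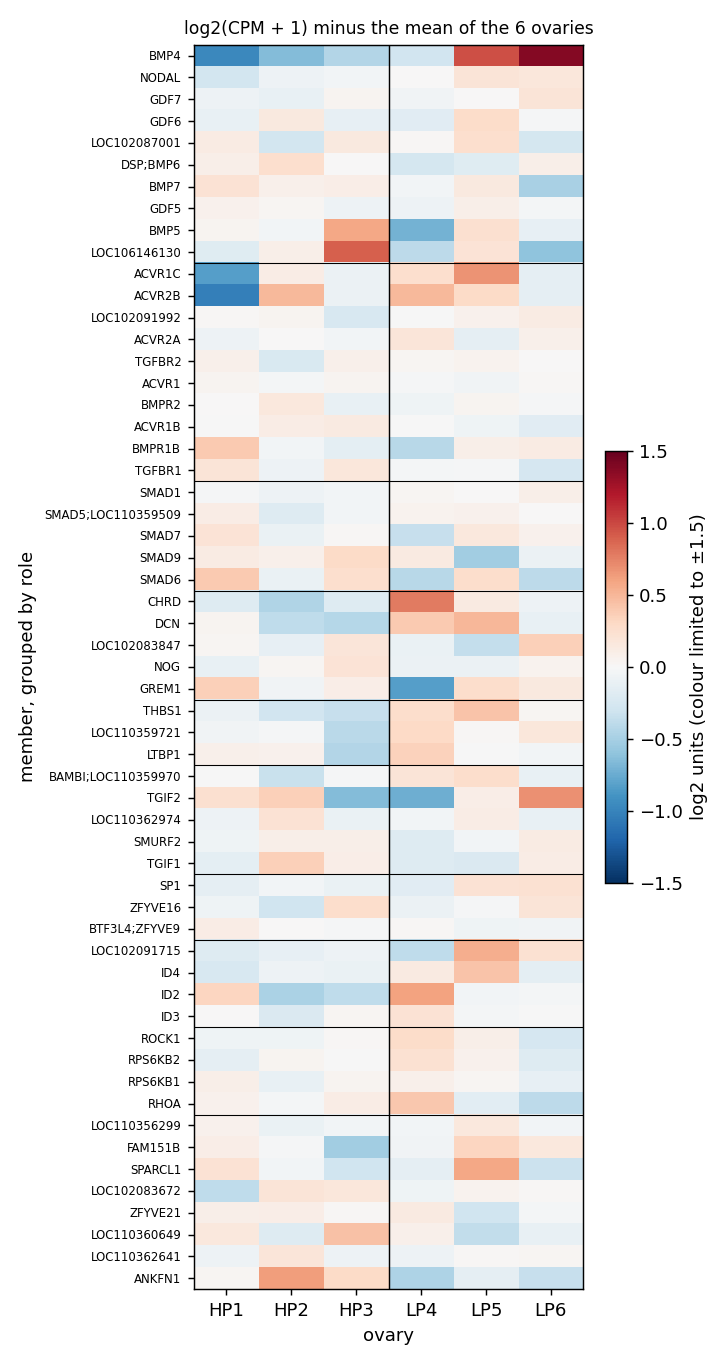
57 of the 58 tested members (rows, grouped by role) in each ovary (columns), as log2(CPM + 1) minus the mean over the 6 ovaries, red above and blue below that mean. BMP4 is blue in the HP ovaries and in LP4 and red in LP5 and LP6, ACVR1C and ACVR2B are lowest in HP1, and CHRD is highest in LP4.

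The ovaries of a group were not alike, either across the members or across all loci. LP5 held the highest value of 14 members, or 24.1%, against 19.1% of all tested loci. LP4 held the lowest value of 12 members, or 20.7%, against 17.3% of all tested loci, among them SMAD6, GREM1, BMP5 and BMPR1B. HP1 held the highest value of 10 members, or 17.2%, against 14.8% of all tested loci, and the lowest of 9, or 15.5%, against 14.3%. In all loci, the first principal component held 26.8% of the variance, with the HP ovaries at 6.13 to 58.37, HP2 the highest, and the LP ovaries at -34.6 to -19.9. The second held 22.6%, with LP4 at 52.38 and LP5 at -48.08 and the other 4 ovaries between -4.24 and 3.12. HP2 was also the ovary with the most RNA of kidney tubule markers, 510.5 CPM against 51.4 to 83.0 CPM in the other 5 ovaries. Without HP2, BMP4 had a log2 fold change of -1.57 and an unadjusted p of 0.0246 in edgeR. In that fit 3 members had an unadjusted p under 0.05, and the share of all loci was not computed. The 5 granulosa markers found summed to 482.5, 844.0 and 1003.7 CPM in HP ovaries, against 849.6, 733.8 and 908.3 CPM in LP ovaries, with HP1 the lowest. In HP1, which was also the lowest ovary for NODAL, ACVR1C and ACVR2B, the granulosa marker AMH had 153.4 CPM, against 370.9 to 603.6 CPM in the other 5 ovaries. The part of the granulosa markers in the values of these members was not tested. FOXL2, another granulosa marker, had at least 294.8 CPM in every ovary and was also lowest in HP1. The granulosa markers FSHR and NR5A2 were instead highest in HP1. FSHR had 31.0 CPM there, against 12.8 to 22.5 CPM in the other 5 ovaries, and NR5A2 had 2.46 against 1.24 to 2.17 CPM. The oocyte markers found summed to between 249.1 and 383.4 CPM in HP ovaries and between 242.2 and 333.2 CPM in LP ovaries. The granulosa marker INHA stayed under 1 CPM, and of the theca markers only STAR was found, at 6.01 to 10.6 CPM in HP and 6.61 to 14.5 CPM in LP ovaries. Endothelial markers summed to between 380.0 and 479.6 CPM in HP and between 396.2 and 631.8 CPM in LP ovaries, and leukocyte markers to between 752.3 and 1090.4 CPM in HP and between 857.6 and 1104.5 CPM in LP ovaries. Adrenal chromaffin markers were highest in HP3, at 195.2 CPM, against 74.5 to 120.7 CPM in the other 5 ovaries. The part of these cell types in the members' values was not tested.

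Of the 65 members, 26 overlap another locus, against 44.9% of all loci. The counts of these 26, 24 of which overlap on the opposite strand, may include reads of the partner. BMP4, THBS1, DCN, CHRD and NODAL overlap none. ANKFN1 overlaps a locus on its own strand, and ACVR1B and SMAD1 overlap loci on the opposite strand.

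Pathway genes outside these members were taken from a list of 46 further TGF-beta and BMP genes, of which 39 were found, at 52 loci. None of the 51 tested had an adjusted p under 0.05 in edgeR, and 3 had an unadjusted p under 0.05, or 5.88%, below the 8.24% of all tested loci. HP and LP ovaries did not overlap at 13.7% of the 51, against 14.6% of all tested loci. HP was above LP at 1 of these, as in 7.38% of all tested loci, and below at 6, as in 7.17%. CTGF, a matrix-associated target of TGF-beta, had 159.9, 113.3 and 84.3 CPM in HP ovaries, against 239.8, 215.4 and 178.3 CPM in LP ovaries, which did not overlap. Its log2 fold change was -0.83 (SE 0.24) with an adjusted p of 0.573 in edgeR. Per 1000 CPM of stroma markers the CTGF groups overlapped, but dividing by that sum raises HP relative to LP values for any gene. The part of stroma content in the difference of CTGF was not tested. LTBP2, a microfibril protein related to LTBP1, averaged 94.7 ± 6.39 CPM in HP and 117.5 ± 12.0 CPM in LP ovaries (log2 fold change -0.31, adjusted p 0.586 in edgeR). TLL2, a tolloid-like protease of the family that cleaves chordin, averaged 36.5 ± 6.87 CPM in HP and 23.5 ± 4.45 CPM in LP ovaries (log2 fold change 0.63, adjusted p 0.584 in edgeR). In edgeR, LTBP2 had an unadjusted p of 0.0543 to 0.105 without HP1, HP2, LP4 or LP6, and TLL2 one of 0.0566 to 0.0634 without HP2, LP5 or LP6. The median log2 fold change of the 51 loci was -0.18, with 19 positive and 32 negative.

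SMAD2, SMAD3, SMAD4 and TGFB3, which the choice of members left out, also overlapped between groups. SMAD3 averaged 129.4 ± 12.0 CPM in HP and 122.1 ± 4.42 CPM in LP ovaries, and SMAD2 averaged 54.1 ± 7.79 CPM in HP and 52.1 ± 4.73 CPM in LP ovaries. SMAD4 shares a locus with ME2 and ELAC1, which averaged 136.5 ± 7.73 CPM in HP and 128.2 ± 19.4 CPM in LP ovaries. TGFB3 had 146.0, 110.1 and 94.9 CPM in HP ovaries, against 267.6, 120.7 and 146.9 CPM in LP ovaries, with LP4 the highest. Of 3 loci of TGFB2, 1 did not overlap, with 58.3, 61.5 and 66.1 CPM in HP ovaries, against 98.7, 67.4 and 68.6 CPM in LP ovaries (log2 fold change -0.34, adjusted p 0.642 in edgeR).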

How the data were processed

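Ovary RNA of 6 pigeons, 3 HP and 3 LP, was depleted of ribosomal RNA and sequenced in pairs with a dUTP protocol that keeps the strand. The authors trimmed reads with Cutadapt 1.9, checked them with FastQC 0.10.1, mapped them to Cliv_1.0 (HISAT2 2.0.4 per the submitters' processing notes, with Bowtie2 per the methods) and assembled and quantified transcripts with StringTie 1.3.4. The sequencer is named differently in the labels and in the methods.

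The deposited table gives each locus a raw count (whole numbers, not normalized) and an FPKM in every ovary. How the counts were made, and whether by strand, is not given in the sources used here. Dividing counts by FPKM implied a gene length above the genomic span for 18.8% of 19780 well-covered loci (more than 100 counts in each ovary), so levels were not compared between loci.

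Every locus whose mean FPKM reached 0.1 was tested for HP against LP with edgeR 4.0.16 (quasi-likelihood test, TMM normalization, two-sided, no covariates) in R 4.3.3, and p-values were adjusted by Benjamini-Hochberg over 28274 loci. The deposited counts were scaled to CPM with TMM factors of 0.987 to 1.016. The fold limit is an absolute log2 ratio of group mean FPKM of at least 1. The fit was tested on simulated data. Alternatives were RLE and upper-quartile factors, DESeq2 1.42.0, limma 3.58.1 on log2(FPKM + 1) and log2(FPKM + 0.1), no filter, a mean FPKM of at least 1, the fold limit on the edgeR value, and leaving out each ovary. Summaries and figures used Python 3.11.15 with numpy 2.4.6, pandas 2.3.3, scipy 1.17.1 and matplotlib 3.10.9.

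Groups came from the sample labels. Members were named where the unadjusted p was under 0.05, where groups did not overlap, for the 3 highest in FPKM of each role, and for the 5 largest spreads of the rest, and others are given in short. Because FPKM was not comparable between loci, the FPKM step only fixed which members were named and does not rank their levels. The members, the gene and marker lists and the roles were chosen with earlier results of these data known. Roles of 9 members came from the protein description and of 12 from the pathway entry alone. For 1 member, counted in the totals, the values are not reported here.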

Additional observations from a re-analysis of the deposited data

How the results depend on the processing

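BMP4 met the p and fold limits, and THBS1 and ANKFN1 an unadjusted p under 0.05, under each of the 14 alternatives. The number of members past the p and fold limits, 1, became 2 with limma on log2(FPKM + 1), where NODAL was added, and without a filter, where LOC102098026 was added, and was 1 to 2 when 1 ovary was left out. The number with an unadjusted p under 0.05, 4, was between 3 and 7 when 1 ovary was left out, with 7 without LP4. The shares of all loci at this p were not computed for these fits, so the counts have no background. No member passed an adjusted p under 0.05 except in DESeq2, which called 1. Over all loci the number past the p and fold limits, 880, was 444 with a mean FPKM of at least 1, for which fewer loci were tested, and 702 to 1058 when 1 ovary was left out. The number of loci with an adjusted p under 0.05, 3, was 385 in DESeq2, 6 and 7 in limma with a pseudocount of 1 and 0.1, and 0 to 7 when 1 ovary was left out, with 0 without LP6. The cause of these shifts was not tested.

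DCN had an unadjusted p of 0.0594 and 0.0589 in limma with a pseudocount of 1 and 0.1. CHRD had an unadjusted p under 0.05 in 5 alternatives, with values between 0.0238 and 0.0493. Of 66 loci whose fold change was recomputed (57 of the 58 tested members and 9 other genes named above or below), 43 kept their sign under every alternative in which they were tested, and 12 were left out by the filter at a mean FPKM of at least 1, of which LOC110362641 was also not tested without HP2. Leaving out 1 ovary gave log2 fold changes of -0.22 to 0.07 for ZFYVE16, -0.08 to 0.19 for SMAD7, -0.16 to 0.2 for LOC110362974, 0.0 to 0.16 for SMURF2, -0.39 to 0.31 for TGIF2, -0.4 to 1.66 for GDF5, -0.6 to 0.25 for GDF6, -0.32 to 0.37 for LOC102087001, -0.08 to 0.18 for LOC102083672, -1.47 to 0.27 for LOC110356299, -0.12 to 1.03 for LOC110362641, -0.39 to 0.29 for SPARCL1, -0.1 to 0.33 for RHOA, -0.22 to 0.04 for ROCK1, -0.04 to 0.07 for RPS6KB1, -0.2 to 0.03 for RPS6KB2, -0.05 to 0.28 for BMPR1B, -0.04 to 0.1 for BMPR2, -0.1 to 0.05 for TGFBR2, -0.09 to 0.55 for GREM1, -0.17 to 0.41 for LOC102083847, -0.01 to 0.16 for NOG and -0.29 to 0.06 for BMP2. In limma, TGIF2 had 0.0 with both pseudocounts, LOC102087001 0.02 and 0.03 with a pseudocount of 1 and 0.1, and LOC110362641 -0.03 with 0.1. No paired analysis was possible because HP and LP ovaries share no replicate number in the labels, which number the LP ovaries 4 to 6. The study's text numbers the birds of each group 1 to 3, but gives no pairing of birds. Depth limits what can be seen for loci of few counts, such as NODAL.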

Other observations

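Genes of the same roles that the pathway annotation did not bring in were counted over 47 tested loci, of which none had an adjusted p under 0.05 in edgeR and 2 had an unadjusted p under 0.05, or 4.26%, below the 8.24% of all tested loci. Both were named after their values were seen. HP and LP ovaries did not overlap at 17.0% of the 47 loci, above the 14.6% of all tested loci. HP was above LP at 2 of these, as in 7.38% of all tested loci, and below at 6, as in 7.17%. These shares were not tested. The locus that holds THBS2, a thrombospondin of the matrix, together with WDR27 had 24.4, 23.2 and 31.7 CPM in HP ovaries, against 74.6, 52.4 and 36.7 CPM in LP ovaries. The groups did not overlap. Its log2 fold change was -1.05 (SE 0.27) with an adjusted p of 0.564 in edgeR and 0.0354 in DESeq2. BMP3 encodes a ligand that opposes other BMPs in bone. It had 13.6, 21.2 and 11.0 CPM in HP ovaries, against 7.57, 9.83 and 9.76 CPM in LP ovaries. Every HP ovary was above every LP ovary. Its log2 fold change was 0.75 (SE 0.28) with an adjusted p of 0.586 in edgeR, and without HP2 it was 0.44. Its unadjusted p in edgeR was 0.0536 to 0.101 without HP2, LP4, LP5 or LP6.

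BMP2, the closest relative of BMP4, had 47.5, 43.9 and 27.6 CPM in HP ovaries, against 41.8, 37.5 and 52.4 CPM in LP ovaries. The groups overlapped, with a log2 fold change of -0.15 (SE 0.24, adjusted p 0.89 in edgeR). BMPR1A, another BMP type I receptor, averaged 80.1 ± 1.0 CPM in HP and 86.0 ± 7.02 CPM in LP ovaries. FBN1, the fibrillin to which latent TGF-beta complexes attach, averaged 204.4 ± 41.9 CPM in HP and 287.8 ± 75.4 CPM in LP ovaries, with an adjusted p of 0.615 in edgeR.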
